A study of Mus musculus with 8 samples.

Results

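The inducible cyclooxygenase gene Ptgs2 and 9 genes of the NF-kB and STAT signalling branches (Nfkbia, Nfkb1, Nfkb2, Rela, Nfkbid, Tnfaip3, Stat3, Socs3 and Irf9) were examined in bulk RNA-seq of mouse medial prefrontal cortex (mPFC). The genes were selected by symbol, all 10 were found once each among the 54532 genes of the deposited count table, and all 10 were among the 16745 genes that passed the filter on low counts. Retrieval libraries (n = 4) and non-retrieval libraries (n = 4) were both made from adult male C57BL/6 mice, in a study of memory for a place associated with methamphetamine, measured as conditioned place preference (CPP). Methamphetamine is a psychostimulant, and CPP is a behavioural task in which animals come to favour the side of a box where they received a drug, so that a later test calls up that memory. Tissue was collected 1 h after the CPP test, and every library pooled the tissue of 2 to 3 mice, so the spread within a group is a spread between pools. The sources used here do not give the handling of the non-retrieval mice, and re-exposure to the apparatus and retrieval of the memory cannot be told apart. The labels name no transgene and no treatment beyond retrieval or non-retrieval.

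NF-kB is a family of dimeric transcription factors that wait in the cytoplasm bound to inhibitor proteins of the IkB family. On stimulation the IkB kinase marks the inhibitors for degradation, the dimers enter the nucleus, and among the genes they switch on are the genes of their own inhibitors. Cytokine receptors of the interleukin-6 family act through JAK kinases on STAT3, which in turn induces the feedback inhibitor SOCS3, while type I interferons act through a complex that contains IRF9. In the cortex Ptgs2 is unusual among inflammation-associated genes because excitatory neurons express it and raise it with synaptic activity.

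The shallowest library held 25013503 counts and the deepest 29547978, with 23474 to 24671 genes detected in each. A gene was called changed at a Benjamini-Hochberg adjusted p under 0.05 in edgeR's quasi-likelihood test, adjusted over all 16745 tested genes. By that rule 4 of the 10 genes rose in retrieval (Ptgs2, Nfkbia, Irf9 and Stat3), none fell and 6 did not pass, beside 3.67% of all tested genes called higher, 0.902% called lower and 4.57% called in either direction. DESeq2 and limma-voom called the same 4 of the 10 genes, beside 6.11% and 9.67% of the genes each tested. At an unadjusted p under 0.05 in edgeR, Tnfaip3 joined them as the fifth, beside 11.2% of all tested genes higher and 18.5% in either direction. The same 4 genes were those whose retrieval and non-retrieval libraries did not overlap, as was the case, with retrieval higher, for 6.59% of all tested genes (4.53% with retrieval lower, 11.1% in all). All 10 log2 fold changes (retrieval over non-retrieval) were positive, between 0.05 and 0.76, with a median of 0.27. Of all tested genes, 47.8% had a positive value, and their median was -0.01. The 10 genes were chosen with earlier results of these data known, so these shares describe the set and do not test it. Levels are given as CPM, the counts after division by TMM-adjusted library sizes in edgeR, and the lowest count of any of the 10 genes in any library was 36, for Nfkbid.

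**Figure D1:**
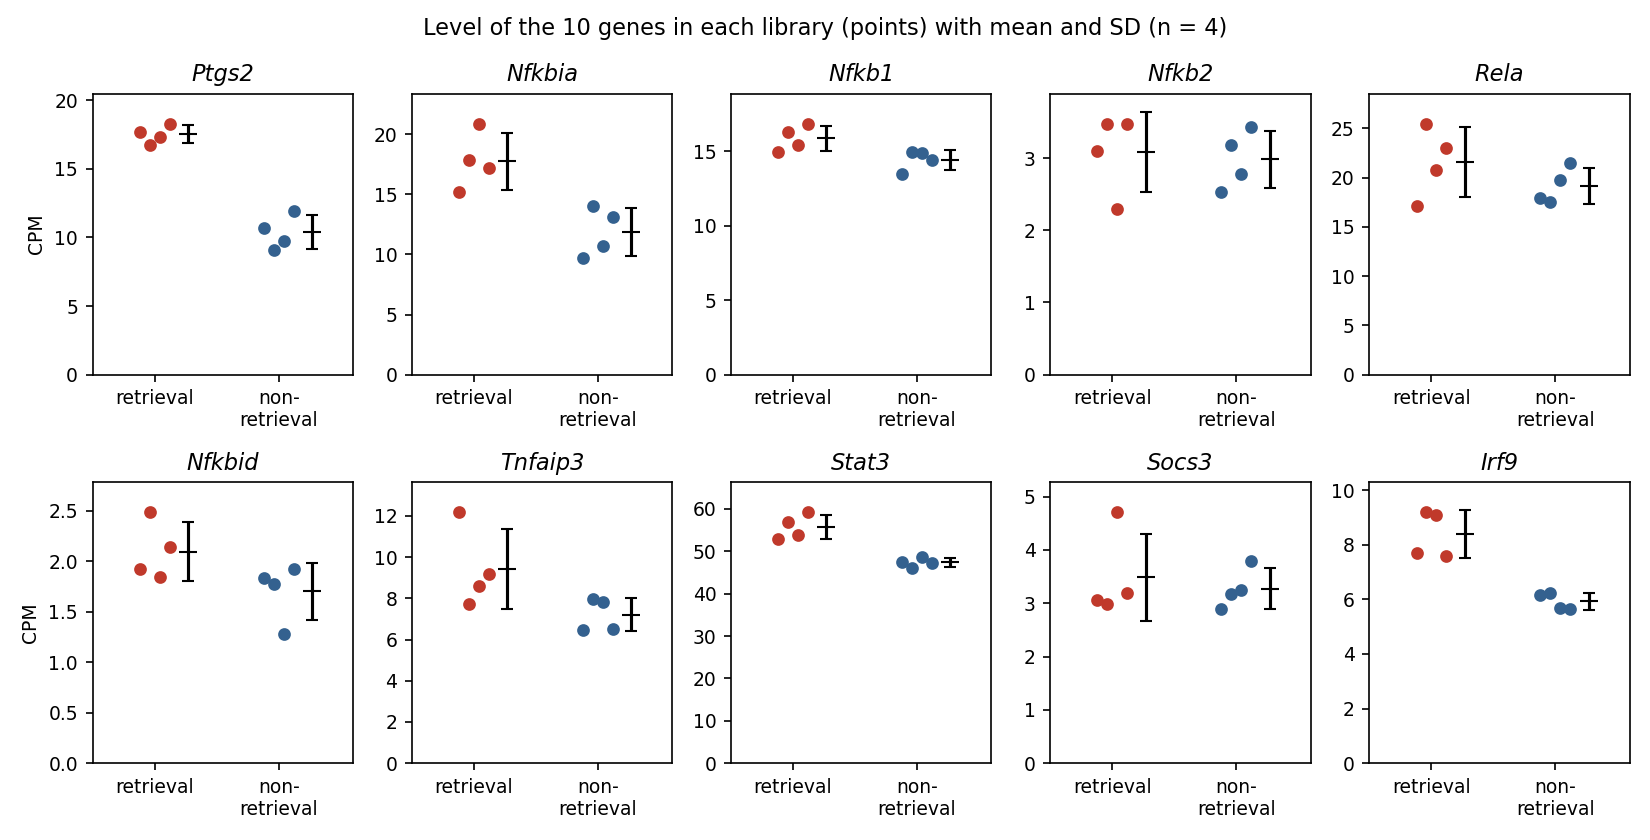
CPM of each of the 10 genes on a linear axis from 0, with 1 point per library (4 retrieval libraries at the left, 4 non-retrieval libraries at the right of each panel) and the mean with its SD beside the points. The retrieval points of Ptgs2, Nfkbia, Stat3 and Irf9 all lie above the non-retrieval points, and the groups overlap in the other 6 panels.

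Ptgs2 encodes the inducible cyclooxygenase, which converts arachidonic acid to the precursor of the prostaglandins, and it showed the largest difference of the 10 genes. Ptgs2 stood at 17.7, 16.8, 17.3 and 18.3 CPM in retrieval replicates 1 to 4, against 10.7, 9.09, 9.73 and 11.9 CPM in non-retrieval replicates 1 to 4. The retrieval libraries lay close together, and the lowest of them was well above the highest non-retrieval library. Ptgs2 averaged 17.5 ± 0.65 CPM in retrieval and 10.4 ± 1.24 CPM in non-retrieval (SD, n = 4 each), a fold change of 1.69 (95% interval 1.47 to 1.94). Its log2 fold change was 0.76 (SE 0.09; edgeR adjusted p = 0.000133), and leaving out each library in turn kept the call (adjusted p 0.000107 to 0.00148). In the build GRCm38, Ptgs2 (ENSMUSG00000032487) lies on chromosome 1 from 150100031 to 150108227 on the plus strand.

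The promoters of Ptgs2, of Nfkbia and of Nfkb2 are printed because the first pair are the largest rises of the 10 genes while Nfkb2 did not pass the test and holds the most kappaB matches. They are the RefSeq windows (GRCm38.p6) from 250 bases before to 50 bases after the annotated start, at chr1:150099781-150100080 (plus strand), chr12:55492598-55492897 (minus strand) and chr19:46304487-46304786 (plus strand; the first of 3 Nfkb2 windows). Capitals mark matches on either strand to the kappaB consensus bound by NF-kB, to the half-site TGACG of the cAMP response element bound by CREB, to the STAT site TTCNNNGAA, and to the E-box CACGTG.
Ptgs2: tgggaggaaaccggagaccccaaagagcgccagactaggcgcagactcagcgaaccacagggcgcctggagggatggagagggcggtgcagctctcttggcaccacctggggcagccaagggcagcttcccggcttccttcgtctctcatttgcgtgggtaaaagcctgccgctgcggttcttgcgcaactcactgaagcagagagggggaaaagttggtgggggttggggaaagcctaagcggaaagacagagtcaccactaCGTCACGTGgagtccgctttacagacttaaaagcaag
Nfkbia: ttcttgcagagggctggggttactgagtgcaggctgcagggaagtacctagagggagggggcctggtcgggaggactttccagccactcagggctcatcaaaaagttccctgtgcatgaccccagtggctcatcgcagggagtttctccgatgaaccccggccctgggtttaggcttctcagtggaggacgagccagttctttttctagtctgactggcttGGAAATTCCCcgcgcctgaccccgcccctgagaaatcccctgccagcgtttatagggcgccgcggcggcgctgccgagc
Nfkb2: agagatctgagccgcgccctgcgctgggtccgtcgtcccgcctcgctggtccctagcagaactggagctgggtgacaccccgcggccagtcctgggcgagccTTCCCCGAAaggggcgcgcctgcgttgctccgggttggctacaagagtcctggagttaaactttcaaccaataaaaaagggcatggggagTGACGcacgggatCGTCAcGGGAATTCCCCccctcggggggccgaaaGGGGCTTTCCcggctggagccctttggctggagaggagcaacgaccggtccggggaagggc
In the Ptgs2 window the capitals are 1 TGACG match, on the minus strand from base 14 after the start, that overlaps 1 E-box from base 17, and no kappaB match was found in these letters. The Nfkbia window holds 1 kappaB match, 29 bases before the start. The Nfkb2 window holds 3 kappaB matches, of which 2 overlap each other (39 and 38 bases before the start) and 1 lies 11 bases before it, 2 TGACG matches and 1 STAT match.

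Windows were found for 9 of the 10 genes, 15 windows in all, some of them overlapping, and Nfkb1 had no entry in the table used. The kappaB consensus was matched in 6 of the 15 windows, those of Nfkbia, Nfkb2, Nfkbid and Tnfaip3, against 8.46% of all 32851 mouse promoter windows of the same length. TGACG was matched in 5 of the 15 windows (Ptgs2, Nfkb2, Nfkbid and Tnfaip3), against 20.8% of all windows. The STAT site was matched in 4 (Nfkb2, Nfkbid and Socs3), against 8.30%, and the E-box in 2 (Ptgs2 and Tnfaip3), against 7.15%. The interferon-stimulated response element and the serum response element were matched in none of the 15, against 3.44% and 1.63% of all windows. Of the 4 genes with a kappaB match, Nfkbia rose and Nfkb2, Nfkbid and Tnfaip3 did not pass the test. These matches describe letters and not binding.

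Of the 3 NF-kB inhibitor genes, Nfkbia rose, and Tnfaip3 and Nfkbid did not pass. Nfkbia encodes IkB-alpha, the inhibitor that holds NF-kB dimers in the cytoplasm and is resynthesised in a feedback loop once they have entered the nucleus. Its level was 15.1, 17.8, 20.9 and 17.2 CPM in retrieval replicates 1 to 4, against 9.72, 14.0, 10.7 and 13.1 CPM in non-retrieval replicates 1 to 4. The groups did not overlap, although only a small gap lay between the lowest retrieval library (replicate 1) and the highest non-retrieval library (replicate 2). Nfkbia averaged 17.8 ± 2.37 CPM in retrieval and 11.9 ± 2.0 CPM in non-retrieval (SD, n = 4 each), a log2 fold change of 0.58 (SE 0.12; edgeR adjusted p = 0.0113). Leaving out non-retrieval replicate 3 ended the call (adjusted p = 0.0562), and over the 8 libraries left out in turn the log2 fold change stayed between 0.50 and 0.66. Nfkbia (ENSMUSG00000021025) lies on chromosome 12 from 55489410 to 55492647 on the minus strand.

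Tnfaip3 encodes a ubiquitin-editing enzyme that shuts off NF-kB signalling downstream of the TNF receptor. It stood at 12.2, 7.74, 8.58 and 9.20 CPM in retrieval replicates 1 to 4, against 6.48, 7.96, 7.81 and 6.53 CPM in non-retrieval replicates 1 to 4. Retrieval replicate 1 was the highest library by a wide margin, and retrieval replicate 2 fell below 2 of the non-retrieval libraries. The log2 fold change was 0.39 (SE 0.13; edgeR adjusted p = 0.120; fold change 1.31, 95% interval 1.08 to 1.601), and it was 0.25 without retrieval replicate 1 (edgeR adjusted p = 0.213). With no filter on low counts Tnfaip3 passed the test (edgeR adjusted p = 0.0315), and over all alternatives its adjusted p ran from 0.0315 to 0.318. In the fit with no filter p and SE did not always move together. For Ptgs2 the unadjusted edgeR p was 2.68e-13 at SE 0.103, against 3.98e-07 at SE 0.094 with the filter. For Nfkbia both were smaller with no filter (p 1.19e-08 at SE 0.101, against 0.000173 at SE 0.120). For Nfkb1 both were larger with no filter (p 0.172 at SE 0.100, against 0.112 at SE 0.082). A pass in that fit alone is taken here as weak evidence. Nfkbid encodes IkBNS, an inhibitor-like protein that acts in the nucleus. It had the fewest counts of the 10 genes and stood at 1.84 to 2.48 CPM in retrieval and 1.28 to 1.92 CPM in non-retrieval, with overlapping groups (log2 fold change 0.30, SE 0.20; edgeR adjusted p = 0.449; fold change 1.23, 95% interval 0.92 to 1.65).

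None of the 3 genes that encode NF-kB subunits passed the test in edgeR, by DESeq2 or by limma-voom, and none had an unadjusted p under 0.05 in edgeR. Rela encodes the subunit that carries the main transactivation domain of the canonical dimer. It ranged from 17.2 to 25.5 CPM in retrieval and from 17.5 to 21.5 CPM in non-retrieval, so that the non-retrieval range lay inside the retrieval range (log2 fold change 0.17, SE 0.11; edgeR adjusted p = 0.437). Nfkb1, the precursor gene of the other canonical subunit, ranged from 14.9 to 16.8 CPM in retrieval and from 13.5 to 15.0 CPM in non-retrieval (log2 fold change 0.14, SE 0.08; edgeR adjusted p = 0.395; fold change 1.10, 95% interval 0.98 to 1.24). Nfkb2, the precursor gene of the non-canonical subunit, ranged from 2.30 to 3.48 CPM in retrieval and from 2.54 to 3.43 CPM in non-retrieval (log2 fold change 0.05, SE 0.17; edgeR adjusted p = 0.905; fold change 1.04, 95% interval 0.81 to 1.33). The library with the lowest Nfkb2 level, retrieval replicate 3, was the library with the highest levels of Nfkbia and of Socs3.

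**Figure D2:**
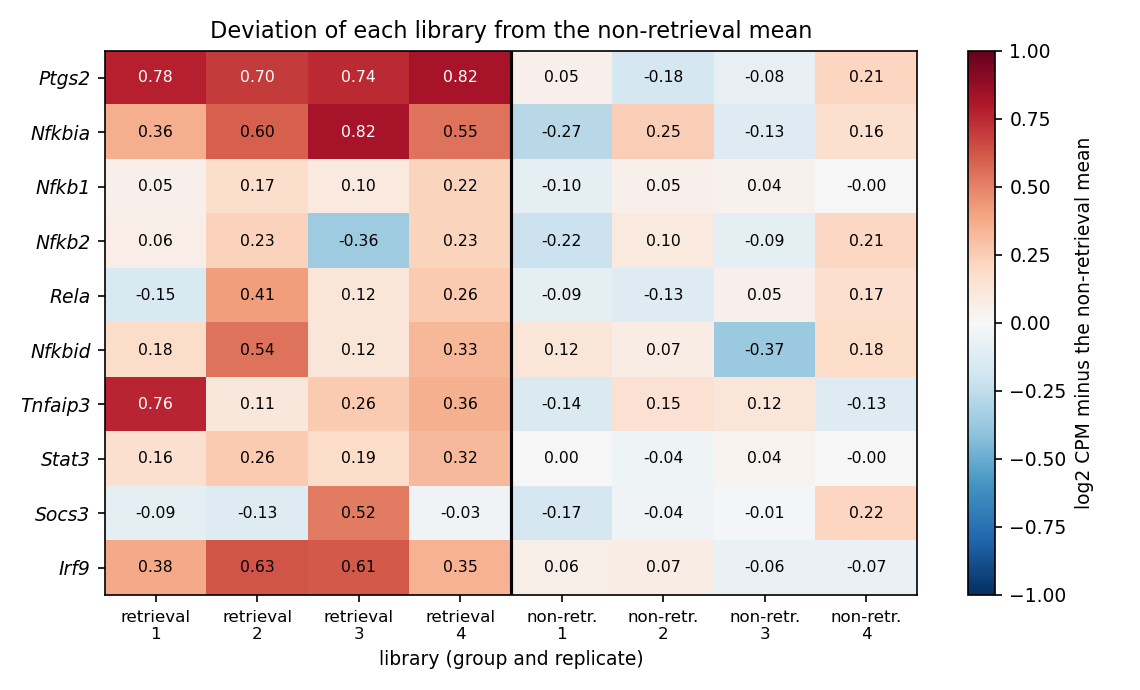
Log2 CPM of each gene (rows) in each library (columns, retrieval at the left and non-retrieval at the right) minus the mean of the 4 non-retrieval libraries, written in each cell and shown by colour from -1 to 1. Ptgs2 is 0.70 to 0.82 in all 4 retrieval libraries, Tnfaip3 reaches 0.76 in retrieval replicate 1 alone, and Socs3 reaches 0.52 in retrieval replicate 3 alone.

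Of the genes on the STAT side, Irf9 and Stat3 rose and Socs3 did not pass. Irf9 encodes the DNA-binding subunit of the transcription factor complex that assembles after type I interferon signalling. Irf9 stood at 7.71, 9.19, 9.08 and 7.57 CPM in retrieval replicates 1 to 4, against 6.16, 6.24, 5.67 and 5.65 CPM in non-retrieval replicates 1 to 4. All retrieval libraries were above all non-retrieval libraries, and the retrieval libraries fell into a higher pair (replicates 2 and 3) and a lower pair. The log2 fold change was 0.50 (SE 0.11; edgeR adjusted p = 0.0148; fold change 1.41, 95% interval 1.21 to 1.66). The call ended without retrieval replicate 3 (edgeR adjusted p = 0.0528), without non-retrieval replicate 3 (0.0560) and without non-retrieval replicate 4 (0.0573), with log2 fold changes of 0.45 to 0.55 over the 8 libraries left out in turn. Irf9 (ENSMUSG00000002325, chromosome 14 from 55603571 to 55610030 on the plus strand) overlaps 123 bases of its neighbour Rnf31 on the same strand, where the assignment of reads is uncertain, and Rnf31 itself did not pass (log2 fold change -0.14, SE 0.10; edgeR adjusted p = 0.473).

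Stat3, the transcription factor that cytokines of the interleukin-6 family activate, was the most abundant of the 10 genes in CPM and had the smallest difference of those called. It stood at 52.8, 56.9, 53.9 and 59.2 CPM in retrieval replicates 1 to 4, against 47.5, 46.1, 48.6 and 47.3 CPM in non-retrieval replicates 1 to 4. The groups did not overlap, and the non-retrieval libraries varied little (coefficient of variation 2.20%, against 5.24% in retrieval). The log2 fold change was 0.23 (SE 0.06; edgeR adjusted p = 0.0419; fold change 1.18, 95% interval 1.07 to 1.29). The call of Stat3 ended without any 1 of the 8 libraries except retrieval replicate 1 (edgeR adjusted p 0.0760 to 0.163), and correcting for GC content and gene length brought the log2 fold change to 0.13 (edgeR adjusted p = 0.149). Stat3 shares 72 bases with Stat5a on the opposite strand, and Stat5a had 31 to 59 counts per library. Over all alternatives the adjusted p of Stat3 ran from 0.00816 to 0.536.

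Socs3 encodes the feedback inhibitor of STAT3 signalling. It stood at 3.06, 2.98, 4.71 and 3.19 CPM in retrieval replicates 1 to 4, against 2.89, 3.18, 3.24 and 3.80 CPM in non-retrieval replicates 1 to 4. Apart from retrieval replicate 3, the retrieval libraries lay within the non-retrieval range. The log2 fold change was 0.08 (SE 0.17; edgeR adjusted p = 0.840; fold change 1.06, 95% interval 0.82 to 1.36), and without retrieval replicate 3 it was -0.09 (edgeR adjusted p = 0.850).

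**Figure D3:**
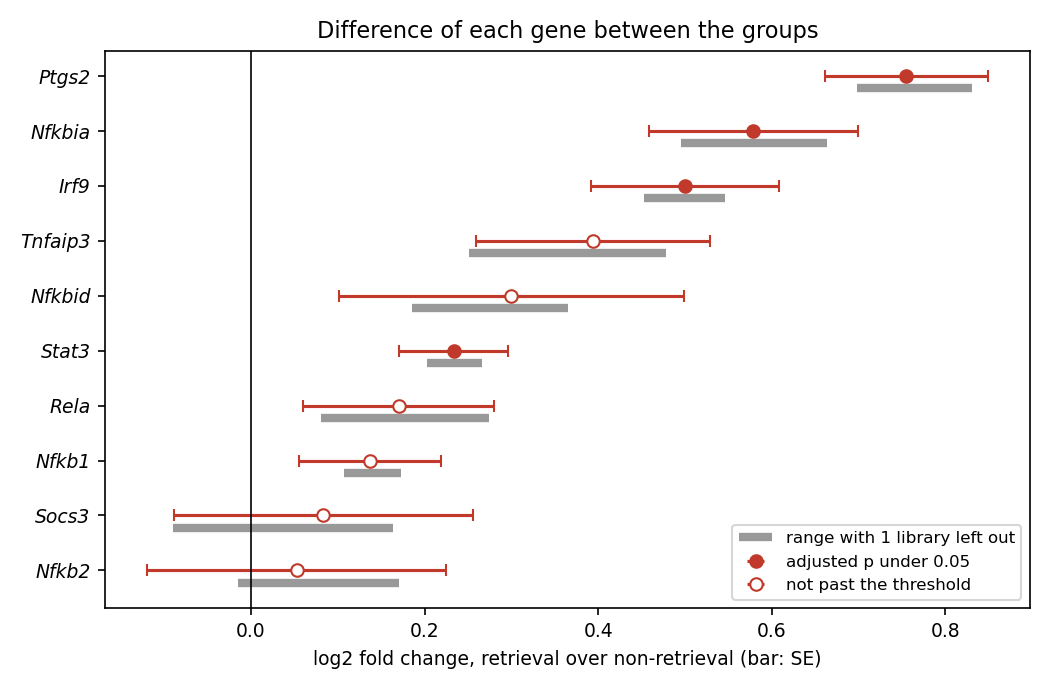
Log2 fold change (retrieval over non-retrieval) of each gene with its SE, filled where the adjusted p was under 0.05, and below it in grey the range of values with each of the 8 libraries left out in turn. Ptgs2 is highest at 0.76, the values of Nfkbia and Irf9 are 0.58 and 0.50, and the grey ranges of Socs3 and Nfkb2 include 0.

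Levels were compared between genes as CPM per kilobase of the deposited gene length. That length belongs to the gene model (1610 bases for Nfkbia, 12061 for Nfkb1) and not to the transcripts present, so the order between genes depends on it. On this scale Nfkbia was highest in retrieval (11.03 ± 1.47), followed by Rela (7.95 ± 1.30), Stat3 (5.85 ± 0.31) and Ptgs2 (3.82 ± 0.14; SD, n = 4 each). In non-retrieval, Nfkbia (7.39 ± 1.24) and Rela (7.06 ± 0.68) did not differ beyond their spread, and Stat3 (4.97 ± 0.11) and Ptgs2 (2.26 ± 0.27) followed in the same order (SD, n = 4 each). The other 6 genes lay between 0.89 (Nfkbid) and 1.56 (Irf9) CPM per kilobase in retrieval and between 0.72 (Nfkbid) and 1.20 (Nfkb1) in non-retrieval. In non-retrieval the neighbours in the order Nfkb1, Socs3, Irf9 and Tnfaip3 overlapped in their libraries, while Nfkb1 (1.118 to 1.241) lay above Tnfaip3 (0.897 to 1.102) in every library.

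Of 46 other genes of the NF-kB pathway (subunits, inhibitors, kinases, adaptors, receptors and ligands), 43 were tested, 3 rose, 1 fell and 39 did not pass, which is 9.30% called beside 4.57% of all tested genes. The median log2 fold change of the list was 0.06. This list was chosen with earlier results of these data known, so its share describes the list and does not test it. Map3k14, which encodes the NF-kB-inducing kinase of the non-canonical pathway, averaged 6.25 ± 0.60 CPM in retrieval and 4.23 ± 0.71 CPM in non-retrieval (SD, n = 4 each; log2 fold change 0.57, edgeR adjusted p = 0.0292). Relb, the non-canonical subunit that pairs with the Nfkb2 product, averaged 6.47 ± 1.23 CPM in retrieval and 4.38 ± 0.44 CPM in non-retrieval (SD, n = 4 each; log2 fold change 0.57, edgeR adjusted p = 0.0324). Traf3, an adaptor that keeps the NF-kB-inducing kinase at a low level, rose by 0.36 on the log2 scale (edgeR adjusted p = 0.0121). Tab1, an adaptor of the kinase TAK1, fell by 0.31 on the log2 scale (edgeR adjusted p = 0.0464). The 4 calls were fragile to single libraries: Traf3 lost its call without non-retrieval replicate 4 (edgeR adjusted p = 0.0560), and the other 3 lost theirs without 5 or 6 of the 8 libraries. With the mean of myelin markers as a covariate all 4 calls ended, and the log2 fold change of Relb was 0.12 (edgeR adjusted p = 0.837).

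Of 35 genes known as targets of NF-kB or STAT3 in other tissues, 28 were tested, and 5 rose, none fell and 23 did not pass (median log2 fold change 0.22). That is 17.9% called, beside 4.57% of all tested genes called and 3.67% called higher. This list too was chosen with earlier results of these data known, so the share cannot serve as a test of the list. Those that rose were Junb, a subunit of the AP-1 transcription factor (1.24), Gadd45b, a stress-inducible gene linked to DNA demethylation (0.74), the survival factor Mcl1 (0.36), the intermediate filament gene Vim (0.35) and the transcriptional repressor Bcl6 (0.31), with edgeR adjusted p of 5.25e-06, 0.000376, 0.00912, 0.0284 and 0.0299. Junb, Gadd45b and Mcl1 kept their calls with each library left out in turn, while Vim lost its call without 5 of the 8 libraries and Bcl6 without 6. With the myelin covariate Mcl1, Vim and Bcl6 lost their calls, and the log2 fold change of Vim was 0.18 (edgeR adjusted p = 0.582). Several of these genes are also known to be regulated by neuronal activity, and the cause of their rise was not tested. Some cytokine and chemokine genes used as read-outs of inflammatory NF-kB and STAT3 signalling, chosen here after their values were seen, were at or near 0. Tnf had 3 counts over the 4 retrieval libraries and 2 over the 4 non-retrieval libraries, Il6 had 5 and 1, Ccl2 had 2 and 1, Cxcl10 had 1 and 5, and Il1b had 18 and 31. Among other genes with few counts, Sele had 3 and 6, the cytokine gene Lif had 53 and 33, and Lcn2 had 19 and 6, of which 15 lay in retrieval replicate 1. Cxcl1 had 0 counts in all 8 libraries, which allows up to 3 counts in each library. Ptgs2 was counted 452 to 526 times per retrieval library and 226 to 355 times per non-retrieval library.

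Of 38 other JAK-STAT pathway genes, 33 were tested, 2 rose and 31 did not pass (median log2 fold change 0.09). That is 6.06% called, near the 4.57% of all tested genes. Ptpn1, a phosphatase that acts on JAK kinases and the insulin receptor, rose to 63.6 ± 6.22 CPM in retrieval, against 46.3 ± 1.67 CPM in non-retrieval (SD, n = 4 each; log2 fold change 0.46, edgeR adjusted p = 0.00155). Socs7, a relative of Socs3, rose by 0.29 on the log2 scale (edgeR adjusted p = 0.0144), and its call ended without retrieval replicate 4 (0.0621) or non-retrieval replicate 4 (0.0573). With the myelin covariate both calls ended, and the log2 fold change of Socs7 was 0.14 (edgeR adjusted p = 0.525). Socs1, the relative that inhibits JAK kinases directly, averaged 1.30 ± 0.26 CPM in retrieval and 0.69 ± 0.09 CPM in non-retrieval (SD, n = 4 each) with groups that did not overlap, and narrowly missed the threshold (log2 fold change 0.92, SE 0.26; edgeR adjusted p = 0.05003, 0.0587 by DESeq2 and 0.0141 by limma-voom). It passed with the length and GC correction (0.0330), with DESeq2's size factors (0.0492) and without retrieval replicate 1 (0.0321). Ptpn6, a phosphatase of blood and microglial cells, did not pass (log2 fold change -0.59, edgeR adjusted p = 0.0904; 0.0683 by DESeq2). It was called lower by limma-voom (adjusted p = 0.0305), with no filter (0.0225) and without retrieval replicate 3 (log2 fold change -0.83, adjusted p = 0.0117).

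None of 36 tested interferon and IRF genes changed in edgeR, with 1 higher and 4 lower at an unadjusted p under 0.05 and a median log2 fold change of -0.09. Of all tested genes, 18.5% had an unadjusted p under 0.05 in edgeR. DESeq2 called 0 of the 36, and limma-voom called 3, all lower, beside 9.67% of all tested genes that it called. These were the antiviral genes Rsad2 (edgeR log2 fold change -0.77), Ifit3 (-0.42) and Ifit2 (-0.24), whose edgeR adjusted p were 0.127, 0.181 and 0.218. Irf2, a repressor of interferon genes, was the 1 higher gene (log2 fold change 0.23, edgeR adjusted p = 0.129). Of 27 tested genes for prostaglandin synthesis, receptors and breakdown other than Ptgs2, none changed in edgeR, by DESeq2 or by limma-voom, with 1 higher and 1 lower at an unadjusted p under 0.05 in edgeR and a median log2 fold change of -0.07. Ptgds, the prostaglandin D synthase abundant in meninges and oligodendrocytes, ranged from 124 to 218 CPM in retrieval and from 87.9 to 211 CPM in non-retrieval (log2 fold change 0.48, edgeR adjusted p = 0.269). Its highest non-retrieval library was replicate 4, and without that library Ptgds passed the test (log2 fold change 0.87, edgeR adjusted p = 0.00449), as it did with no filter on low counts (0.48, adjusted p = 3.80e-09) and with the myelin covariate (1.19, adjusted p = 0.0347). The value with no filter carries the limit of that fit given above, and by DESeq2 the adjusted p of Ptgds was 0.558. The lipoxygenase gene Alox12 stood below 1 CPM in every library (log2 fold change -0.76, edgeR adjusted p = 0.185). Faah, which breaks down the endocannabinoid anandamide, and the prostaglandin reductase gene Ptgr2 had log2 fold changes of -0.13 and -0.16 (edgeR adjusted p = 0.271 and 0.306), and Faah passed with the length and GC correction (-0.21, adjusted p = 0.0123).

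**Figure D4:**
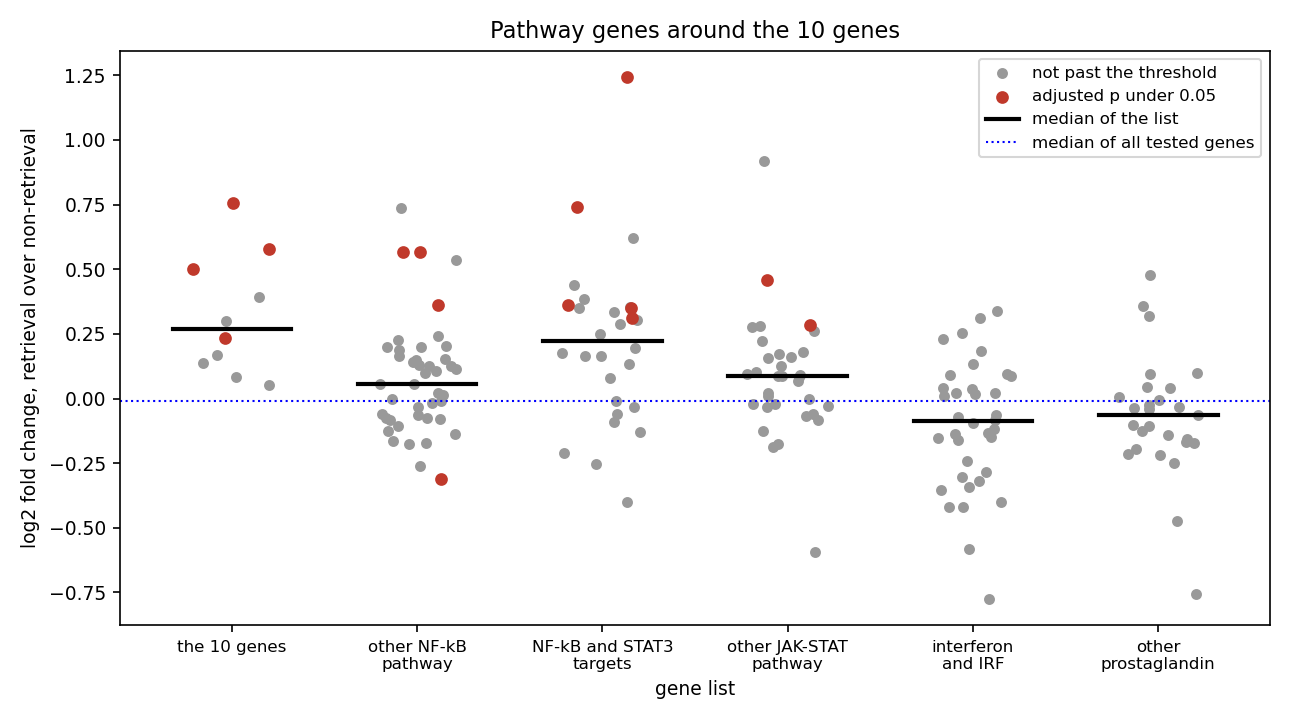
Log2 fold change (retrieval over non-retrieval) of every tested gene of the 10-gene set and of 5 related lists, with called genes in red, the median of each list as a black bar and the median of all tested genes as a dotted line at -0.01. The medians are 0.27 for the 10 genes, 0.06, 0.22 and 0.09 for the next 3 lists, and -0.09 and -0.07 for the interferon and prostaglandin lists, which hold no called gene.

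The genes whose centred log2 CPM over the 8 libraries lay nearest to that of Ptgs2, among 13247 protein-coding genes with a mean of at least 1 CPM, were Dusp6, Bhlhe40, Gadd45b, Irak4 and Plk3. Their root mean square differences from Ptgs2 were 0.07, 0.08, 0.08, 0.10 and 0.11 on the log2 scale, against a median of 0.42 over all candidates. These genes were chosen for the smallest differences, so values below that median were fixed by the choice. The profiles keep the difference between the groups, which favours genes with a log2 fold change like that of Ptgs2 (here 0.70 to 0.79). Shared regulation was not tested. Dusp6, a phosphatase of the ERK kinases, stood at 89.9 to 104 CPM in retrieval and 53.1 to 65.7 CPM in non-retrieval. Like Ptgs2, all of these nearest genes had their highest non-retrieval level in replicate 4, a likeness that the choice by profile favours. Bhlhe40 encodes a transcriptional repressor of the clock, Plk3 a polo-like kinase, and Irak4 a kinase that links interleukin-1 and Toll-like receptors to NF-kB. Irak4 stood at 1.35 to 1.59 CPM in retrieval and 0.72 to 1.14 CPM in non-retrieval and did not pass the test (log2 fold change 0.74, edgeR adjusted p = 0.0971).

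In bulk tissue fewer cells of a type and less RNA per cell cannot be told apart, so marker levels of cell types that express these genes are given beside them. The 14 microglial markers, none of them called, had a summed level of 353 to 421 CPM in retrieval and 389 to 413 CPM in non-retrieval (mean log2 CPM 4.04 ± 0.11 and 4.09 ± 0.05, SD, n = 4 each; exact two-sided permutation p = 0.486). The 12 endothelial markers, none called, summed to 278 to 345 CPM in retrieval and 294.8 to 318.5 CPM in non-retrieval (exact permutation p = 0.714), and the 12 astrocyte markers, none called, to 4842 to 5730 and 4640 to 5116 CPM (exact permutation p = 0.629). All 10 markers of cortical excitatory neurons were detected, at a summed 5609 to 6642 CPM in retrieval and 5938 to 6451 CPM in non-retrieval (exact permutation p = 0.371). The 14 myelin markers, of which 7 were called higher, averaged a log2 CPM of 6.97 ± 0.23 in retrieval and 6.58 ± 0.11 in non-retrieval (SD, n = 4 each; exact permutation p = 0.0286, the smallest possible, and 0.171 adjusted over 6 marker lists). Their summed level was 4264 to 6188 CPM in retrieval and 3512 to 4158 CPM in non-retrieval, and the 2 highest libraries were retrieval replicates 2 and 4. The same 2 libraries were the highest for Stat3, Rela, Nfkbid, Nfkb1 and, by a small margin, Nfkb2, but not for Ptgs2, Nfkbia, Tnfaip3, Socs3 or Irf9. With the myelin mean as a covariate Ptgs2 kept its call (log2 fold change 0.86, edgeR adjusted p = 0.00469), while the log2 fold change of Nfkbia was 0.57 (edgeR adjusted p = 0.192), of Irf9 0.47 (0.281) and of Stat3 0.16 (0.536). The covariate itself differed between the groups, and the part of myelin in these differences was not tested. Of 13 markers of the striatum beneath the mPFC 11 were tested and none was called, and their mean log2 CPM was 4.61 in retrieval replicate 2 and 3.61 to 3.80 in the other retrieval libraries, against 3.51 to 3.76 in non-retrieval (exact permutation p = 0.286). Without that library Ptgs2, Nfkbia and Irf9 kept their calls (edgeR adjusted p = 0.000184, 0.0186 and 0.0451).

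**Figure D5:**
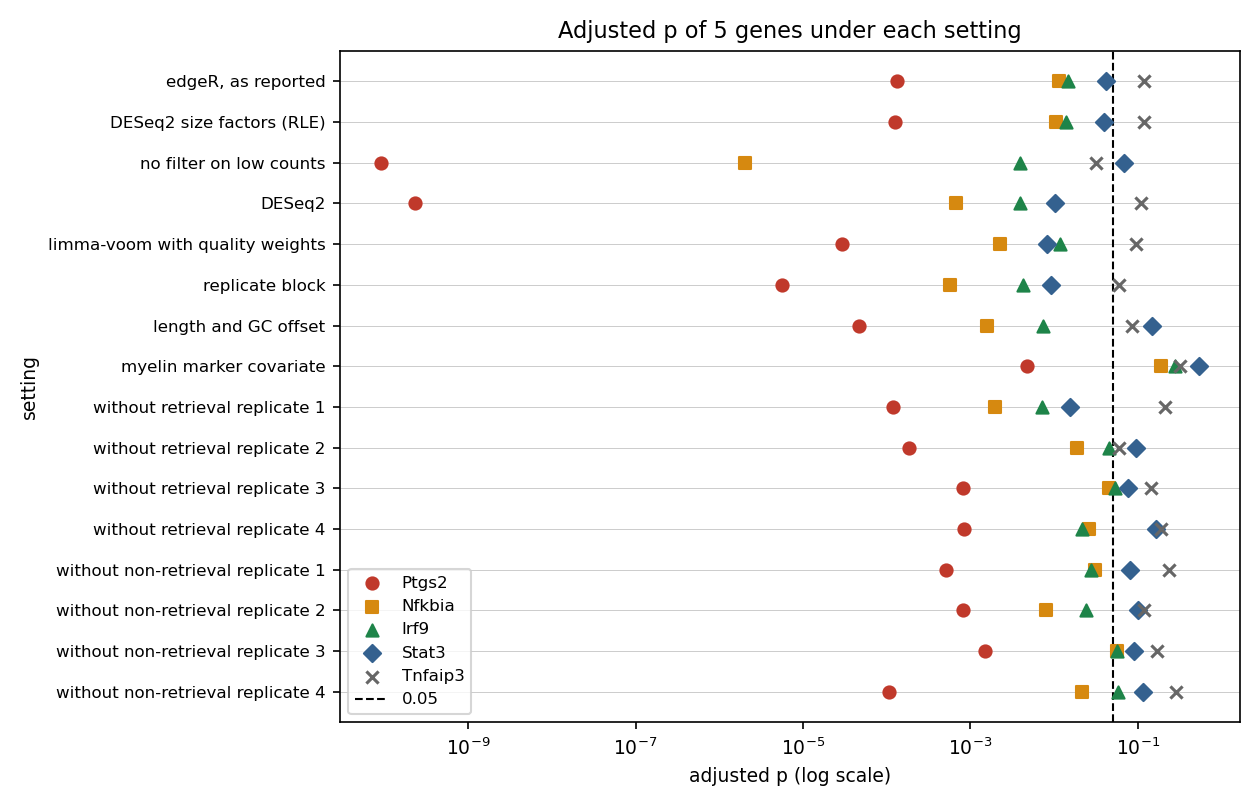
Adjusted p on a log axis for Ptgs2, Nfkbia, Irf9, Stat3 and Tnfaip3 under the reported edgeR test (top) and each alternative below it, with a dashed line at 0.05. Ptgs2 stays left of the line in every row, and Nfkbia crosses it with the myelin covariate and without non-retrieval replicate 3. Irf9 lies left of it in 11 of the 15 alternatives and Stat3 in 5. Tnfaip3 is left of it only in the row with no filter on low counts.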

How the data were processed

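The authors deposited raw read counts per gene, not normalized, for 54532 genes with Ensembl identifiers, coordinates and the length of each gene model. The tools and build listed in the submitters' processing notes are featureCounts 1.5.0-p3, HISAT2 2.0.5 and GRCm38. The sources used here give neither strand setting nor annotation release, and overlapping or antisense genes may share reads. Groups and replicate numbers came from the sample titles, and each column of counts was matched to its title.

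Genes were filtered with filterByExpr and tested with edgeR 4.0.16 (R 4.3.3, TMM, quasi-likelihood F test, two-sided, 8 libraries, no covariate), with Benjamini-Hochberg adjustment over all 16745 genes. SE and intervals were computed from the F statistic. Of all steps, only this edgeR test was tried on simulated counts. Log2 CPM used a prior count of 2. Marker levels were compared with an exact permutation test (70 arrangements). Alternatives were DESeq2 1.42.0 and its size factors, limma-voom with quality weights (limma 3.58.1), no filter, the replicate block, a loess offset for gene length and GC content (span 0.5, GENCODE M21 transcripts of the same build, 99.9% of tested genes), a myelin covariate, and leaving out each library. RefSeq promoter windows were searched for motifs.

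The 10 genes, the lists and the tests were chosen with earlier results of these data known. The text names all 10 genes, up to 6 called and otherwise up to 4 genes with the smallest p of each list, and the 5 nearest to Ptgs2. Other genes were chosen after their values were seen. Intervals and floors cover counting error and the spread between pools only.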

Additional observations from a re-analysis of the deposited data

Results flagged for a closer look

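In 1 of 32 groups of 4 libraries examined (the 10 genes and 6 marker lists in each group), a single library stood apart from the rest by more than Dixon's 95% critical value, and chance gives about 1 in 20. Socs3 was at 4.71 CPM in retrieval replicate 3 and at 2.98 to 3.19 CPM in the other 3 retrieval libraries (gap over range 0.881). The same library had the highest Nfkbia level of all 8.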

How the results depend on the processing

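The reported test called 766 genes, 80.3% of them higher. Limma-voom called 1619, the replicate block 1791 (71.1% higher), the length and GC offset 1375 (54.0% higher, 743 higher and 632 lower) and the myelin covariate 119, and the count ran from 330 to 1360 with 1 library left out. Leaving out non-retrieval replicate 4 or 3 gave 330 or 331 genes, leaving out retrieval replicate 4 or 3 gave 397 or 420, and leaving out retrieval replicate 1 gave 1360. The myelin mean itself differs between the groups, so that the covariate removes part of the contrast. Of the 10 genes, 1 to 4 were called with 1 library left out (1 without non-retrieval replicate 3, 2 without retrieval replicate 3 or non-retrieval replicate 4) and 1, Ptgs2, with the myelin covariate. Under the other 6 alternatives 3 or 4 were called, but with no filter Tnfaip3 took the place of Stat3.

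The NF-kB pathway count of 4 was 0 with the myelin covariate and 0 to 3 with 1 library left out. The target count of 5 was 9 by limma-voom, 9 with the replicate block, 2 with the myelin covariate and 3 to 8 with 1 library left out. The JAK-STAT count of 2 was 4 by limma-voom, 5 with the replicate block, 4 with the offset, 0 with the myelin covariate and 1 to 3 with 1 library left out. The interferon count of 0 was 3 by limma-voom, and the prostaglandin count of 0 was 1 with no filter, 1 with the offset and 1 with the myelin covariate; both were 0 to 1 with 1 library left out.

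The sign turned, in values that never passed the test, for Nfkb2 (log2 fold change -0.27) and Rela (-0.0565) with the myelin covariate, and with 1 library left out for Nfkb2 (-0.0154 to 0.17), Socs3 (-0.0895 to 0.16) and the endothelial marker difference (-0.0084 to 0.11). The cause was not tested for any of these changes.

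Libraries with the same replicate number share no stated litter or day. Their deviations from the group means correlated at 0.0268 to 0.221, and each of the 8 libraries correlated best with the library of its own number, a hint from the data and not the design. The block changed no call among the 10 genes, and with it Socs1 (adjusted p = 0.0353) and Ptpn6 (0.0375) passed.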

Other observations

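The other cyclooxygenase gene, Ptgs1, which encodes the constitutive enzyme, was counted 405 to 478 times per library in retrieval and 427 to 565 times in non-retrieval, and did not pass the test (log2 fold change -0.11; edgeR adjusted p = 0.610). The ratio of Ptgs2 to Ptgs1 in CPM per kilobase, chosen after the values were seen and given without a test, was 1.10, 0.86, 0.88 and 0.90 in retrieval replicates 1 to 4, against 0.56, 0.45, 0.41 and 0.64 in non-retrieval replicates 1 to 4. The groups did not overlap in this ratio.

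The ratio of Nfkbia to Rela on the same scale was 1.18 to 1.70 in retrieval and 0.91 to 1.35 in non-retrieval, and that of Socs3 to Stat3 was 0.17 to 0.29 in retrieval and 0.20 to 0.26 in non-retrieval, with overlapping groups in both. The cytokine gene Lif, a ligand of the receptors that activate STAT3, had 53 counts over the 4 retrieval libraries and 33 over the 4 non-retrieval libraries, with overlapping groups, and did not pass the filter on low counts.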
